A study of Mus musculus with 8 samples.

Results

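The genes described here encode proteins that coat single-stranded DNA and carry out strand exchange during meiotic recombination in mouse spermatocytes. The members were chosen by name as recombinases, mediators and subunits of replication protein A (RPA), with earlier results of these data known. The 9 genes are Dmc1, Rad51ap1, Rad51ap2, Psmc3ip, Mnd1, Brca2, Rpa1, Rpa2 and Rpa3. All 9 had a value among the 23235 gene symbols, and all 9 were among the 15899 genes that exceeded 1 FPKM (fragments per kilobase of transcript, scaled to the mapped fragments of the library) in at least 1 library and were tested.

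RNA-seq of flow-sorted spermatocytes from male mice of the C57BL/6 strain addressed how the transcriptome changes through meiotic prophase when CNOT4, a subunit of the CCR4-NOT deadenylase complex, is deleted. Wild-type (WT) and Cnot4-null cells were each collected at the leptotene and zygotene stages (LZ) and at the pachytene and diplotene stages (PD), with 2 libraries in each of the 4 groups. The Cnot4-null cells came from Cnot4 fl/fl mice carrying Stra8-Cre, which is active in male germ cells from around meiotic entry and deletes exon 2, so somatic cells of these testes keep the gene. The methods give an age of 6 weeks for sorting and 500 sorted cells per library. Whether the WT mice carried the floxed allele or Cre was not given in the sources used here. The duplicates are described as biological replicates, and it is not stated whether each came from its own mouse, so part of the spread between libraries may be technical.

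In meiotic prophase, programmed double-strand breaks are resected, and the single-stranded tails are coated by the RPA heterotrimer of RPA1, RPA2 and RPA3. BRCA2 helps to load recombinases onto these tails in place of RPA, and the meiosis-specific recombinase DMC1 then pairs a tail with the homologous chromosome. The PSMC3IP-MND1 heterodimer stimulates strand invasion by DMC1, and RAD51AP1 and RAD51AP2 are recombinase-associated proteins. Recombination foci of these proteins are abundant in leptotene and zygotene cells and are normally cleared from the autosomes in pachytene. RPA also serves DNA replication and repair in somatic cells and in spermatogonia.

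On mm9 (GENCODE vM1), Dmc1 lies at chr15:79391930-79435529 on the minus strand and Rpa2 at chr4:132324247-132334667 on the plus strand, and these were the members called for the interaction of genotype and stage below. CNOT4 holds an RNA recognition motif for which the hexamer GACAGA has been reported, so the 3′UTR of the coding transcript with the longest coding sequence was searched for it on the transcribed strand. The 3′UTR of Rpa1, of 955 bases, was not analysed here, so the hexamer was not counted for it. Of the other 8 members, Rpa2 alone held the hexamer, once, and the surrounding transcript sequence is shown with the hexamer in capitals. The match describes the letters and is no evidence that CNOT4 binds or regulates this transcript.
Rpa2, chr4:132333869-132333898, plus strand: agaggcttctagGACAGAactttgctgtag
This copy starts at base 92 of a 3′UTR of 878 bases. Of all 3′UTRs at least as long, trimmed to the same length from the stop codon, 29.7% hold the hexamer. For the 7 members without it, Dmc1 among them, that share ran from 6.04% for the 134 bases of Mnd1 to 35.4% for the 1145 bases of Rad51ap1.

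All 9 members had 1 promoter window of 300 bases around the RefSeq start site on GRCm38.p6. The letters TTTNNCGC of the E2F motif were searched on both strands, and 3 of the 9 windows held them, against 5.17% of all 32851 promoter windows. The 3 are those of Dmc1, Rad51ap2 and Brca2, and the match is shown in capitals.
Dmc1, chr15:79605091-79605118, minus strand: gcggccctcaTTTGGCGCcaagcccgga
Rad51ap2, chr12:11455805-11455830, plus strand: tcaaaacaGCGCTAAAcctcggtgta
Brca2, chr5:150522443-150522470, plus strand: ttaggccacaGCGGGAAAcagacacaca
In Rad51ap2 and Brca2 the match is on the opposite strand and appears in reverse complement. The CCAAT letters, also searched on both strands, were in 5 of the 9 windows (Rad51ap1, Psmc3ip, Rpa1, Rpa2 and Rpa3), against 37.4% of all windows. The Rpa2 window held 3 of them, all on the opposite strand, as did at least that many in 3.37% of all windows. The copies nearest to the start site, first base at -84 and -52, are shown in capitals.
Rpa2, chr4:132768265-132768291, plus strand: catgagttctgATTGGctgaaggtaaa
Rpa2, chr4:132768297-132768323, plus strand: ccagggcgctgATTGGctgtcccttcg
The CRE letters TGACGTCA were in the Brca2 window alone (1.79% of all windows), and the NRF1 motif was in the Rad51ap1 window alone (6.23%). These matches are descriptions of the letters in each window.

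The 8 libraries differed in depth and in markers of the cells they hold. Depth was estimated from the spacing of low FPKM values in 8451 genes with 1 coding transcript, and it came to 5950000 and 6320000 fragments for WT LZ, 7290000 and 7900000 for WT PD, 5580000 and 6330000 for Cnot4-null LZ, and 5930000 and 4850000 for Cnot4-null PD. These are indirect estimates, and the read totals reported with the study were not used here and put the libraries in a different order, so they are not ranked by depth. Genes above 1 FPKM numbered 10103 and 10076 (WT PD), 13887 and 14249 (Cnot4-null PD), and from 11538 to 11823 in the LZ libraries.

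The Cnot4-null PD libraries stood apart from the other 6 in Leydig and myoid cell markers. Summed FPKM of the 8 Leydig cell markers was 10082 and 22299 (Cnot4-null PD), where all 8 exceeded 1 FPKM and Insl3 was the most abundant at 9669 and 21608, and it lay between 7.16 and 116.6 in the other libraries. WT PD replicate 1 had the 116.6, and in replicate 2 Cyp11a1, Cyp17a1, Hsd3b6 and Lhcgr were at 0, as were these 4 in WT LZ replicate 2. In each Cnot4-null LZ library 4 of the 8 were at 0, as was Lhcgr in WT LZ replicate 1. The 6 peritubular myoid cell markers summed to 76.6 and 325.8 (Cnot4-null PD), with Acta2 the most abundant, and to between 7.35 and 12.5 elsewhere, with Myh11 and Des at 0 in WT PD replicate 2. All Leydig and myoid markers tested were called higher in Cnot4-null PD than in WT PD, 8 of 8 and 6 of 6, against 41.6% of all tested genes.

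For the lists that follow, 41.6% of all tested genes were called higher and 11.5% lower in Cnot4-null at PD. The 8 macrophage markers summed to 28.4 and 120.9 (Cnot4-null PD), led by Lyz2, against 3.37 and 3.05 (WT PD), where C1qa was at 0 in both libraries, Cd68 in replicate 1 and Csf1r in replicate 2, and 4 of the 8 were called higher. At LZ the macrophage sums were 37.8 and 1.03 in WT, the first above Cnot4-null PD replicate 1, and 12.9 and 5.24 in Cnot4-null. The 7 Sertoli cell markers in the files summed to 106.3 and 215.9 against 12.3 and 21.1, with 4 called higher and 1 lower. These sums were mostly Clu, at 94.6 and 195.8 against 8.06 and 15.3. At LZ the Sertoli sums went the other way between genotypes, at 75.0 and 66.4 in WT and 7.29 and 12.5 in Cnot4-null, where Dhh was at 0 in both libraries. The 8 spermatid markers, with Prm1 the most abundant, summed to 16024 and 7551 against 425.2 and 273.1, and all 8 were called higher. At LZ they summed to 1846.5 and 1540.5 in WT, above WT PD, and to 4066 and 724.6 in Cnot4-null. The 8 spermatogonial markers, led by Dmrt1, summed to 141.3 and 237.9 against 9.85 and 6.95, also with all 8 called higher, and to between 236.6 and 327.8 at LZ.

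Stage markers separated LZ from PD in both genotypes. The 8 pachytene and diplotene markers, with Ldhc the most abundant at PD, summed to 12126 and 11259 (WT PD), to 5456 and 1893 (Cnot4-null PD), and to between 187.6 and 403.4 in the LZ libraries. Of these 8, 4 were called lower and 0 higher in Cnot4-null PD than in WT PD. The 8 early prophase markers, led by Sycp3, summed to between 696.5 and 3469 across the libraries, lowest in Cnot4-null PD replicate 2, and at PD 3 were called higher and 4 lower in Cnot4-null. The methods describe sorting on Hoechst and propidium iodide staining, with immunofluorescence for SYCP3 and phosphorylated H2AX on the sorted cells. In bulk RNA, fewer cells of a type and less RNA per cell cannot be told apart, and the part that these other cells have in the differences between Cnot4-null PD and other groups was not tested.

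**Figure D1:**
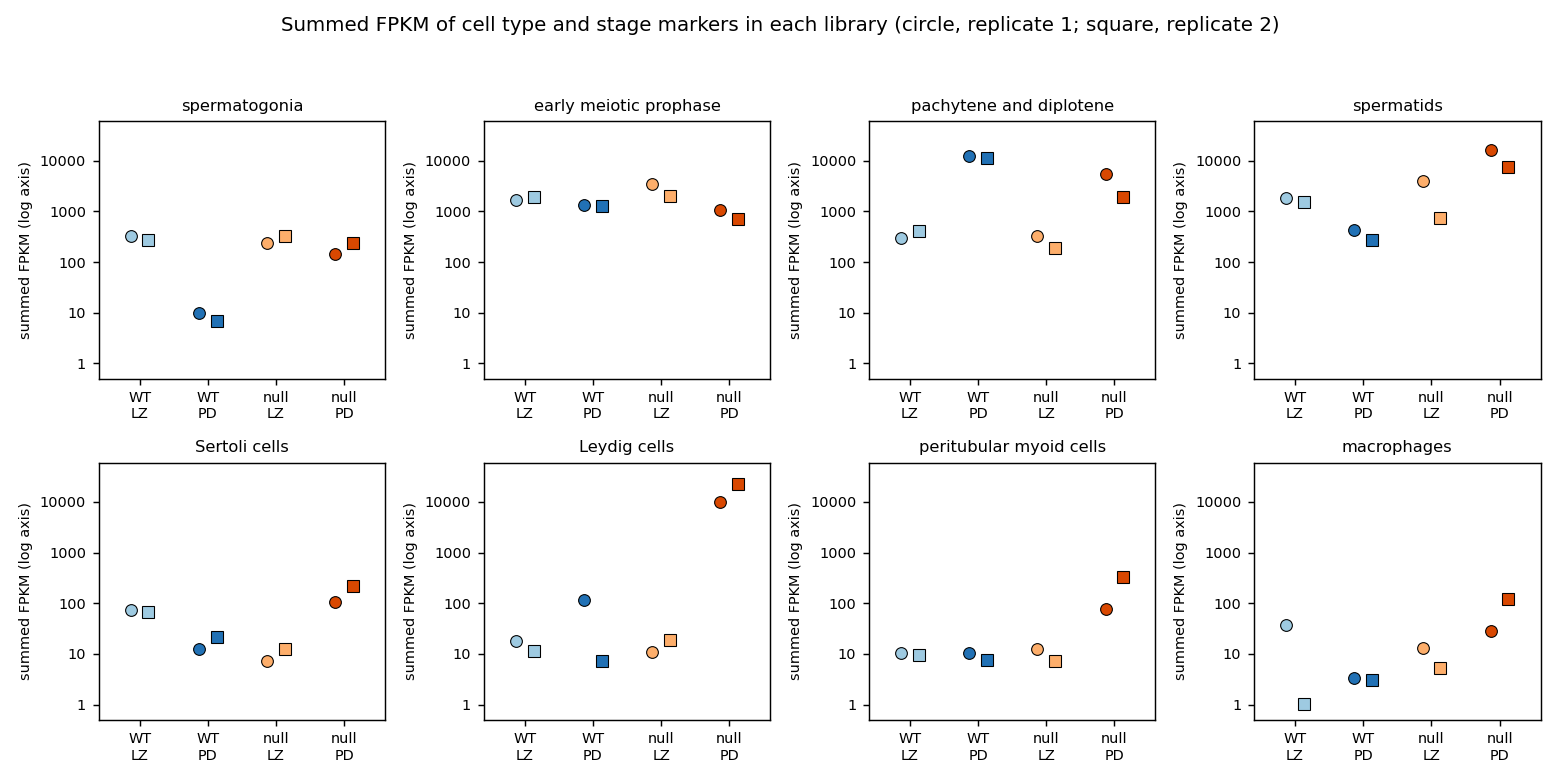
Summed FPKM (log axis) of 8 marker lists in each library; each point is 1 library, with circles for replicate 1 and squares for replicate 2. Leydig cell markers reach 10082 and 22299 in Cnot4-null PD and stay at or below 116.6 in the other 6 libraries.

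Cnot4 itself was at 36.0 and 34.9 FPKM (WT LZ), 43.2 and 34.6 (Cnot4-null LZ), 76.6 and 73.1 (WT PD), and 65.9 and 53.5 (Cnot4-null PD). It was called higher at PD than at LZ in WT (log2 fold change 1.06, adjusted p = 0.00282) and in Cnot4-null (0.61, adjusted p = 0.041). The genotypes overlapped at LZ, and at PD both null libraries were lower than both WT libraries without passing the test (log2 fold change -0.33, SE 0.199, limma adjusted p = 0.192). The deletion removes exon 2 only, which a value for the whole gene need not show, so these levels do not check the genotype labels.

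Dmc1, the meiotic recombinase, had FPKM values of 75.7 and 91.5 (WT LZ) and 132.5 and 81.8 (Cnot4-null LZ). It was at 1.16 and 0.590 (WT PD) and at 8.58 and 9.22 (Cnot4-null PD). Dmc1 was thus high in all 4 LZ libraries and low in all 4 PD libraries, and the Cnot4-null PD pair lay between the LZ libraries and the WT PD pair without touching either. Of all tested genes, 58.2% had both Cnot4-null PD libraries above both WT PD libraries. In 31.1% they were both below both Cnot4-null LZ libraries. The PD mean was 1.05% of the LZ mean in WT and 8.31% in Cnot4-null.

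Brca2, the mediator, was at 23.6 and 20.5 FPKM (WT LZ), 9.55 and 9.12 (WT PD), 32.5 and 26.3 (Cnot4-null LZ), and 11.6 and 14.6 (Cnot4-null PD). Its PD libraries were all below its LZ libraries, and its null libraries were above the WT libraries of the same stage. Both null libraries exceeded both WT libraries in 18.2% of all tested genes at LZ and in 58.2% at PD. The PD mean was 42.4% of the LZ mean in WT and 44.5% in Cnot4-null.

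The partners Psmc3ip and Mnd1 had opposite patterns. Psmc3ip was at 93.2 and 115.5 FPKM (WT LZ), 510.7 and 495.3 (WT PD), 108.5 and 78.8 (Cnot4-null LZ), and 402.0 and 202.3 (Cnot4-null PD). Mnd1 was at 5.80 and 19.5 (WT LZ), 1.53 and 0.700 (WT PD), 33.0 and 19.1 (Cnot4-null LZ), and 16.2 and 4.80 (Cnot4-null PD). Psmc3ip was high in PD and Mnd1 in LZ, and Mnd1 in Cnot4-null PD overlapped its WT LZ range. The libraries of Mnd1 were uneven in 3 groups, with replicate 1 at 0.297 times replicate 2 in WT LZ, 2.18 times in WT PD and 3.38 times in Cnot4-null PD. From its 874-base transcript, the Mnd1 values in WT PD correspond to an estimated 10 and 5 fragments, and in Cnot4-null PD to 84 and 20.

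Rad51ap1 was nearly level across 6 libraries, at 53.7 and 50.2 FPKM (WT LZ), 58.7 and 55.4 (WT PD), and 50.3 and 58.6 (Cnot4-null LZ). The 2 Cnot4-null PD libraries, at 35.0 and 20.6, were its lowest. Rad51ap2 was at 9.69 and 19.2 (WT LZ) and 21.7 and 15.5 (Cnot4-null LZ), and at 0.0431 and 0.197 (WT PD) and 0.835 and 0.191 (Cnot4-null PD). It was near the limit of detection at PD in both genotypes, where these values correspond to an estimated 1 and 5 fragments in WT and 16 and 3 in Cnot4-null.

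Rpa2, the middle subunit of RPA, was at 186.5 and 177.2 FPKM (WT LZ), 13.3 and 12.4 (WT PD), 184.5 and 159.6 (Cnot4-null LZ), and 58.9 and 42.5 (Cnot4-null PD). As for Dmc1, the Cnot4-null PD libraries of Rpa2 lay clear of both the LZ libraries above and the WT PD libraries below. They were above both WT PD libraries in 58.2% of all tested genes, and below both Cnot4-null LZ libraries in 31.1%. Rpa3, the small subunit, was at 112.5 and 151.9 (WT LZ), 22.4 and 19.7 (WT PD), 148.3 and 116.0 (Cnot4-null LZ), and 31.1 and 24.8 (Cnot4-null PD), so it was low at PD in both genotypes.

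Rpa1, the large subunit that makes most contacts with DNA, had the opposite stage pattern in WT. It was at 46.5 and 34.6 FPKM (WT LZ) and 109.9 and 109.4 (WT PD), and at 37.3 and 36.0 (Cnot4-null LZ) and 63.2 and 32.6 (Cnot4-null PD). WT PD stood above all other libraries, and the Cnot4-null PD pair fell on both sides of its LZ pair. The PD mean as a percent of the LZ mean was 270% for Rpa1, 7.07% for Rpa2 and 15.9% for Rpa3 in WT, and 131%, 29.5% and 21.2% in Cnot4-null.

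**Figure D2:**
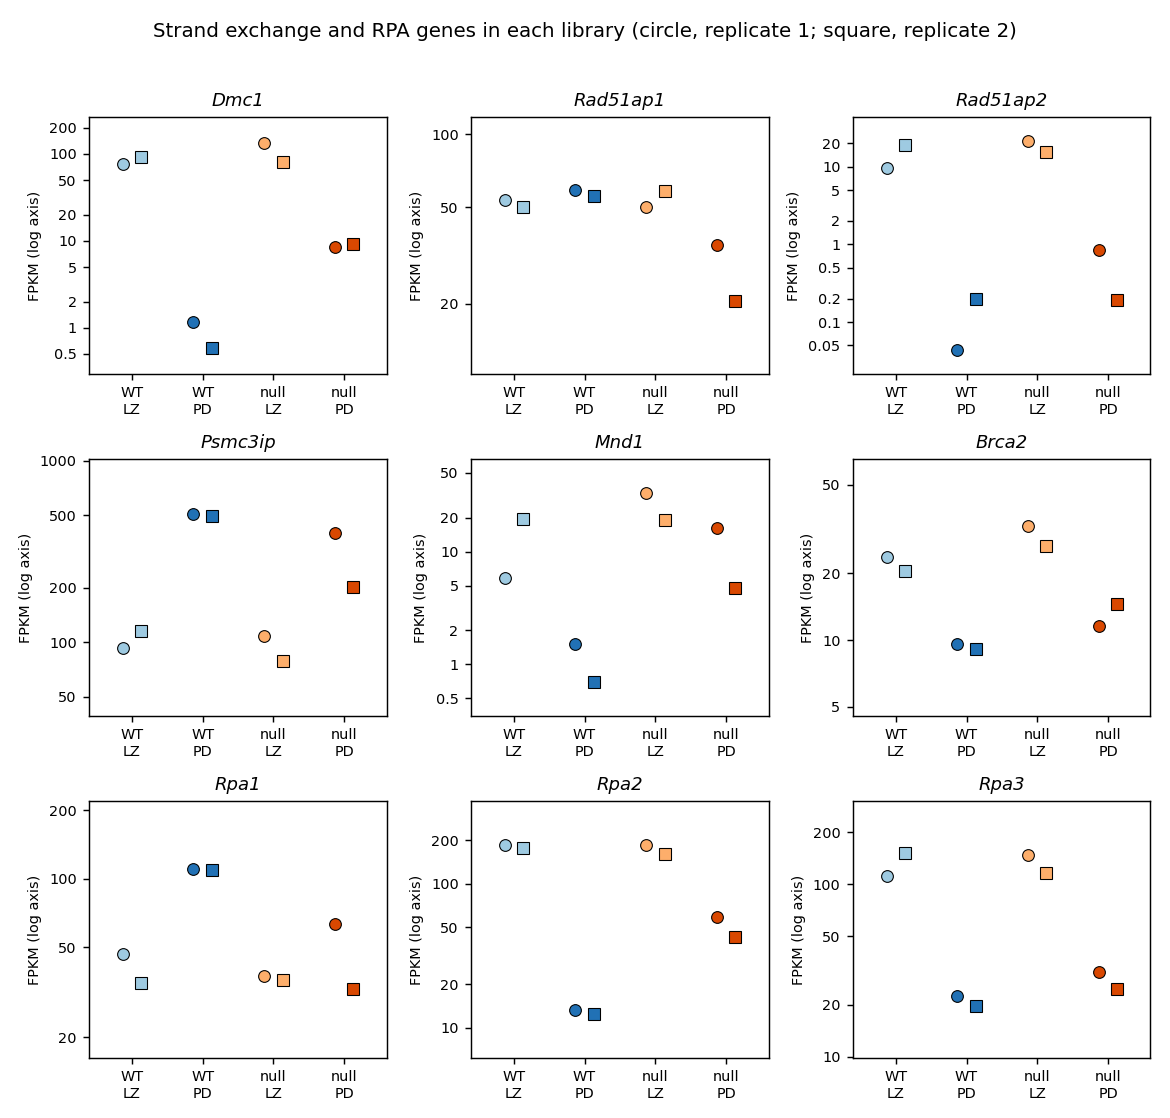
FPKM (log axis) of the 9 genes in each library, by group, with circles for replicate 1 and squares for replicate 2. Dmc1 and Rpa2 in Cnot4-null PD (8.58 and 9.22; 58.9 and 42.5) lie between the LZ and the WT PD libraries, whereas Rpa1 and Psmc3ip are highest in WT PD.

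The order of the levels, which FPKM gives per transcript length, changed with stage. In WT LZ the order of mean FPKM from the top was Rpa2, Rpa3, Psmc3ip, Dmc1, Rad51ap1, Rpa1, Brca2, Rad51ap2 and Mnd1, with overlapping libraries between Rpa3 and Psmc3ip and between Rad51ap2 and Mnd1. Cnot4-null LZ kept Rpa2 and Rpa3 at the top, although the ranges of Rpa3, Dmc1 and Psmc3ip overlapped from each to the next, as did those of Brca2, Mnd1 and Rad51ap2. In WT PD the order was Psmc3ip, Rpa1, Rad51ap1, Rpa3, Rpa2, Brca2, Mnd1, Dmc1 and Rad51ap2, and Mnd1 and Dmc1 were the only neighbours whose libraries overlapped. In Cnot4-null PD Psmc3ip was again the highest and Rad51ap2 the lowest, Rpa2 overlapped Rpa1, Rpa3 overlapped Rad51ap1, and Brca2, Mnd1 and Dmc1 overlapped in turn.

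From LZ to PD in WT, the transcripts of Dmc1, Rad51ap2, Mnd1, Rpa2 and Rpa3 fell, Brca2 fell by less, and those of Psmc3ip and Rpa1 rose. Of the 9 members, 6 were called lower and 2 higher at an adjusted p under 0.05 (limma on log2(FPKM + 1), all genes tested), against 36.2% of all tested genes called lower and 21.6% called higher. The median change was -2.51 on the log2 scale over the members and -0.32 over all tested genes. Fold changes on this scale understate the change of genes at low FPKM.

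Dmc1 had a log2 fold change of -5.51 (SE 0.288, adjusted p = 1.93e-05), Rpa2 of -3.72 (SE 0.21, adjusted p = 2.14e-05) and Rad51ap2 of -3.72 (SE 0.392, adjusted p = 0.000182). Rpa3 changed by -2.58 (SE 0.237, adjusted p = 0.000102) and Brca2 by -1.15 (SE 0.218, adjusted p = 0.00286). These 5 genes were lower in both PD libraries than in both LZ libraries, as were 50.2% of all tested genes. The order depends on the pseudocount, since with 0.1 in place of 1 the values were -6.48 for Dmc1, -6.06 for Rad51ap2 and -3.81 for Rpa2. The PD mean of Rad51ap2 was 0.834% of its LZ mean, below the 1.05% of Dmc1. By library this order turned, at 0.299% and 1.37% for Rad51ap2 and 1.39% and 0.706% for Dmc1 in PD replicates 1 and 2. Mnd1 changed by -2.51 with a wider error (SE 0.671, adjusted p = 0.0142), and its call was lost without WT LZ replicate 2 (adjusted p = 0.0977), without WT PD replicate 2, with no filter and under quantile normalization (adjusted p = 0.0859), within a range of 0.00859 to 0.0977 over all alternatives.

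Psmc3ip rose by 2.27 (SE 0.338, adjusted p = 0.000911) and Rpa1 by 1.43 (SE 0.314, adjusted p = 0.00599), with both PD libraries above both LZ libraries, as in 31.0% of all tested genes. Relative to the median of all tested genes, these changes were 2.58 and 1.74, and the 6 falls ranged from -5.19 for Dmc1 to -0.84 for Brca2. Rad51ap1 was not called (log2 fold change 0.13, 95% interval -0.48 to 0.75, adjusted p = 0.716), and the sign of its change turned under quantile normalization (-0.06).

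In Cnot4-null cells, Dmc1, Rad51ap2, Rpa3, Rpa2, Brca2 and Rad51ap1 were lower at PD than at LZ and Psmc3ip was higher, while Mnd1 and Rpa1 were not called. Of the 9 members 6 were called lower at PD, against 18.2% of all tested genes, and 1 higher, against 27.8%. Dmc1 changed by -3.41 on the log2 scale (SE 0.288, adjusted p = 0.000365), Rad51ap2 by -3.71 (SE 0.392, adjusted p = 0.000613) and Rpa3 by -2.20 (SE 0.237, adjusted p = 0.000647). Rpa2 changed by -1.76 (SE 0.21, adjusted p = 0.000923), Brca2 by -1.11 (SE 0.218, adjusted p = 0.00588) and Psmc3ip by 1.61 (SE 0.338, adjusted p = 0.00767). The median change was -1.39 over the members and 0.19 over all tested genes. Of all genes called, 60.5% were higher at PD in the values as deposited and 37.4% after quantile normalization.

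Rad51ap1 was called lower there (log2 fold change -0.99, SE 0.261, adjusted p = 0.0189), and its call was lost without Cnot4-null LZ replicate 1 or replicate 2 and with only the libraries compared, at an adjusted p of 0.00329 to 0.104 over all alternatives. The Psmc3ip call was lost without Cnot4-null LZ replicate 2 and with only the libraries compared, within a range of 0.000946 to 0.0632. Mnd1 was not called (log2 fold change -1.39, 95% interval -2.96 to 0.19, adjusted p = 0.128), although both PD libraries were below both LZ libraries, as in 31.1% of all tested genes. Its value was -2.17 without Cnot4-null PD replicate 1 and -0.604 without replicate 2, against -1.35 and -0.618 for Rad51ap1. Rpa1 was not called either (0.30, 95% interval -0.44 to 1.04, adjusted p = 0.453), and its value turned on 1 library, being 0.77 without Cnot4-null PD replicate 2 (adjusted p = 0.0294) and -0.17 without replicate 1.

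**Figure D3:**
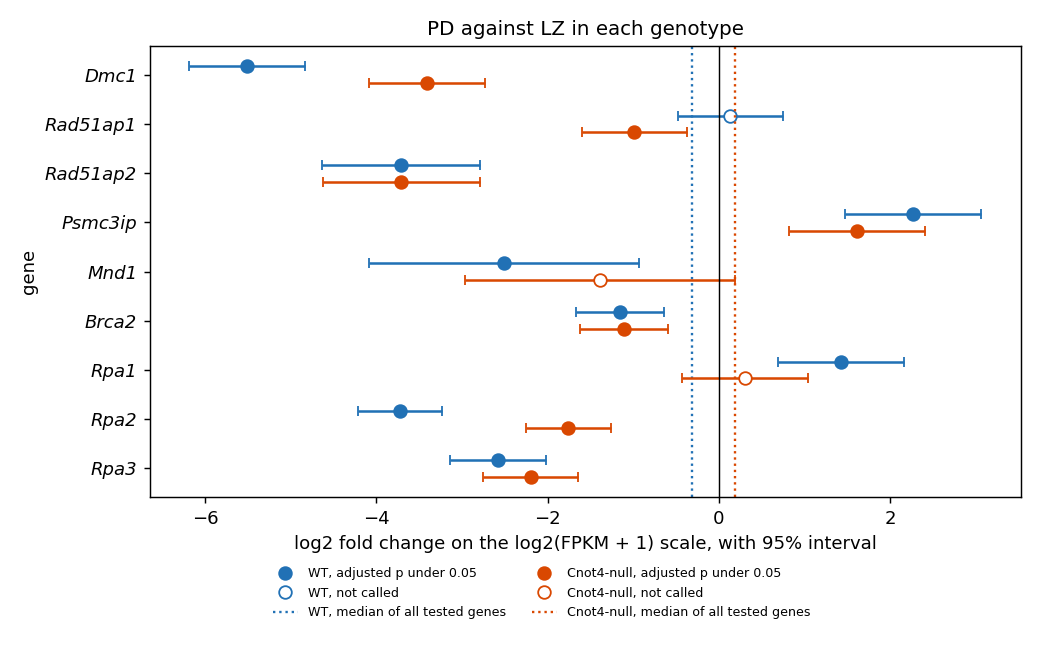
Log2 fold change at PD against LZ for each gene on the log2(FPKM + 1) scale in WT (blue) and Cnot4-null (orange), with 95% intervals; filled points were called at an adjusted p under 0.05, and dotted lines mark the median of all tested genes (-0.32 and 0.19). Dmc1 and Rpa2 lie farther to the left in WT (-5.51 and -3.72) than in Cnot4-null (-3.41 and -1.76).

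Between genotypes at LZ, no member differed by the test. The count called was 0 of 9 with limma, and 0 of 9 at an unadjusted p under 0.05, against 0.0943% of all tested genes called, which is 15 genes, and 1013 genes at an unadjusted p under 0.05. The log2 fold changes ran from -0.16 for Psmc3ip to 1.15 for Mnd1. Mnd1 had the widest 95% interval (-0.43 to 2.72), and its WT LZ libraries, at 5.80 and 19.5 FPKM, were the more uneven pair, so that its value ran from 0.348 without WT LZ replicate 1 to 1.94 without replicate 2. Brca2 was the only member whose null libraries both exceeded both WT libraries (log2 fold change 0.40, 95% interval -0.12 to 0.91, adjusted p = 0.865), as did 18.2% of all tested genes. For Dmc1 the interval was -0.36 to 1.00 and for Rpa2 -0.58 to 0.41.

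Between genotypes at PD, Dmc1, Rpa2 and Mnd1 were higher in Cnot4-null cells than in WT cells, and Rad51ap1 and Rpa1 were lower. Thus 3 of the 9 members were called higher, against 41.6% of all tested genes, and 2 lower, against 11.5%. The median log2 fold change was 0.66 over all tested genes and 0.40 over the members. This general shift depends on scaling, since 78.3% of the 8449 genes called were higher in the values as deposited, 60.3% of 9151 once the libraries were rescaled to one median, and 41.0% of 6913 after quantile normalization. The count of 8449 was 4341 and 4057 without WT PD replicate 1 and 2. Changes are therefore also given relative to the median gene.

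Dmc1 was higher by a log2 fold change of 2.42 (SE 0.288, 95% interval 1.74 to 3.09, adjusted p = 0.000729), which is 1.75 above the median gene. Rpa2 was higher by 1.88 (SE 0.21, 95% interval 1.39 to 2.37, adjusted p = 0.000574), or 1.22 above the median gene. Both were called under all 16 alternatives, with adjusted p values of at most 0.0144 for Dmc1 and 0.0151 for Rpa2, although the change of Dmc1 was smaller after quantile normalization (1.20). Mnd1 was higher by 2.27 (SE 0.671, adjusted p = 0.0257), and this call was lost under 6 alternatives. Among them were quantile normalization (0.97, adjusted p = 0.34, the highest of a range from 0.0166) and leaving out WT PD replicate 1, WT PD replicate 2 or Cnot4-null PD replicate 1. Over all alternatives the value of Mnd1 ran from 0.97 to 3.05.

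Rpa1 was lower by a log2 fold change of -1.25 (SE 0.314, adjusted p = 0.014) and Rad51ap1 by -1.06 (SE 0.261, adjusted p = 0.0133), which is -1.92 and -1.72 relative to the median gene. Both null libraries were below both WT libraries for each gene, as in 23.1% of all tested genes. Without Cnot4-null PD replicate 2 the values were smaller and still called, at -0.786 for Rpa1 and -0.689 for Rad51ap1. Both calls were kept under each scaling and lost without either WT PD library and with only the libraries compared, with an adjusted p of up to 0.0768 for Rpa1 and 0.0811 for Rad51ap1. Psmc3ip had a lower level in both null libraries and was just outside the threshold (-0.82, SE 0.338, adjusted p = 0.0766), and it passed after rescaling to the same median (-1.25, adjusted p = 0.00785, the lowest of a range up to 0.325) and without Cnot4-null PD replicate 1 (-1.31). It was -0.323 without Cnot4-null PD replicate 2 (adjusted p = 0.325) and -0.404 after quantile normalization.

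Brca2 (0.44, adjusted p = 0.124), Rad51ap2 (0.40, adjusted p = 0.4) and Rpa3 (0.39, adjusted p = 0.199) were not called. Their values were below the median gene, at -0.22, -0.26 and -0.28, and the sign turned under quantile normalization for Brca2 (-0.30) and Rad51ap2 (-0.36) and after rescaling for Rpa3 (-0.03). With a pseudocount of 0.1 the value of Rad51ap2 was 1.34 (adjusted p = 0.143, the lowest of a range up to 0.885). Brca2 was called higher only without Cnot4-null PD replicate 1 (adjusted p = 0.0458). With 2 libraries on each side, exact permutation cannot go below p = 0.333, so it was not used for any gene.

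**Figure D4:**
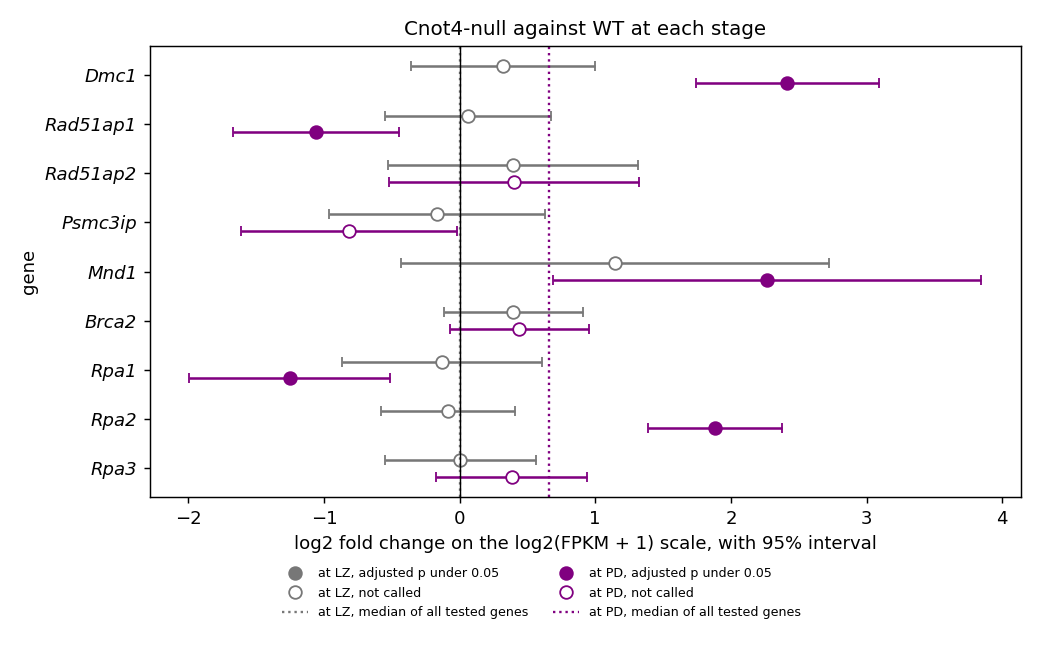
Log2 fold change of Cnot4-null against WT on the log2(FPKM + 1) scale at LZ (grey) and PD (purple), with 95% intervals; filled points were called at an adjusted p under 0.05, and dotted lines mark the median of all tested genes (0 and 0.66). At LZ all 9 intervals include 0, and at PD those of Dmc1, Rpa2 and Mnd1 lie above 0 and those of Rpa1, Rad51ap1 and Psmc3ip, which was not called, below it.

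Several members were uneven between the Cnot4-null PD libraries. Replicate 1 was 1.99 times replicate 2 for Psmc3ip, 1.94 times for Rpa1 and 1.70 times for Rad51ap1, the members with the highest levels in WT PD. It was also 3.38 times for Mnd1 and 4.38 times for Rad51ap2, which are low in WT PD, and 1.38 and 1.25 times for Rpa2 and Rpa3. Dmc1 and Brca2 were nearly even or lower in replicate 1, at 0.931 and 0.796 times, and the median over genes above 1 FPKM in every library was 1.18. In WT PD the ratio was from 1.00 for Rpa1 to 1.14 for Rpa3 in the RPA genes, 1.03 for Psmc3ip, 1.06 for Rad51ap1 and 1.05 for Brca2, and it departed further from 1 for the members near the bottom, at 1.96 for Dmc1, 2.18 for Mnd1 and 0.218 for Rad51ap2. Summed markers also differed between the Cnot4-null PD libraries, at 2.88 times for pachytene and diplotene, 0.594 for spermatogonia, 0.452 for Leydig cells, 0.493 for Sertoli cells, 2.12 for spermatids, 1.54 for early prophase and 0.235 for both myoid cells and macrophages. How far these cells enter the members' levels was not tested.

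Whether the genotype effect itself differed between stages was tested as an interaction, which uses the same 8 libraries as the comparisons above. It was called for 2 of the 9 members, both higher, against 26.0% of all tested genes called higher and 3.97% called lower, of which 0 were members. The all-gene count behind these shares, 4770, was 1656 without WT PD replicate 2 and 7929 without Cnot4-null PD replicate 1. For Dmc1 the difference was 2.098 (SE 0.407, adjusted p = 0.0106) and for Rpa2 1.96 (SE 0.297, adjusted p = 0.00447), or 1.46 and 1.32 relative to the median gene at 0.64. Of all genes called for the interaction, 86.8% were higher in the values as deposited, 63.3% after rescaling and 44.1% after quantile normalization. The Rpa2 call held under all 15 alternatives run, with adjusted p values of at most 0.0315. The Dmc1 call was lost after quantile normalization (0.90, adjusted p = 0.124, the highest of a range from 0.00648) and without WT PD replicate 2, where the value was little changed (1.88, adjusted p = 0.0565).

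Rad51ap1 (-1.12, SE 0.369, adjusted p = 0.0571) and Rpa1 (-1.12, SE 0.444, adjusted p = 0.0942) missed the threshold. Rad51ap1 passed it after quantile normalization, after rescaling and without either Cnot4-null PD library, and Rpa1 after rescaling and without Cnot4-null PD replicate 1. Psmc3ip, at -0.65 (adjusted p = 0.32), passed only without Cnot4-null PD replicate 1 (-1.15, adjusted p = 0.0384) and was -0.158 without replicate 2 (adjusted p = 0.727, the highest of its range). For Mnd1 (1.12), Rpa3 (0.38), Brca2 (0.04) and Rad51ap2 (0.01) the adjusted p values were between 0.381 and 0.992. Thus Mnd1, called by stage in WT and not in Cnot4-null, showed no tested difference between the genotypes in its stage change (adjusted p = 0.381).

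Ratios between partner genes within a library do not depend on a scaling factor of that library. The Rpa1 to Rpa2 ratio of FPKM was 0.249 and 0.195 (WT LZ) and 0.202 and 0.225 (Cnot4-null LZ), and it was 8.26 and 8.81 (WT PD) and 1.07 and 0.766 (Cnot4-null PD). The groups at PD did not overlap, and Rpa1 exceeded Rpa2 by a wide margin only in WT PD. The Rpa3 to Rpa2 ratio, by contrast, was 1.68 and 1.59 (WT PD), 0.528 and 0.584 (Cnot4-null PD), and between 0.603 and 0.857 in the LZ libraries. The Psmc3ip to Mnd1 ratio was 16.1 and 5.91 (WT LZ), 334 and 707 (WT PD), 3.29 and 4.12 (Cnot4-null LZ), and 24.8 and 42.2 (Cnot4-null PD). Its WT PD values rest on an estimated 10 and 5 fragments of Mnd1. For Rpa1 to Rpa2 and Psmc3ip to Mnd1 the Cnot4-null PD libraries lay between the LZ and the WT PD libraries, and for Rpa3 to Rpa2 they were the lowest of all 8. Ratios were described without a test.

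**Figure D5:**
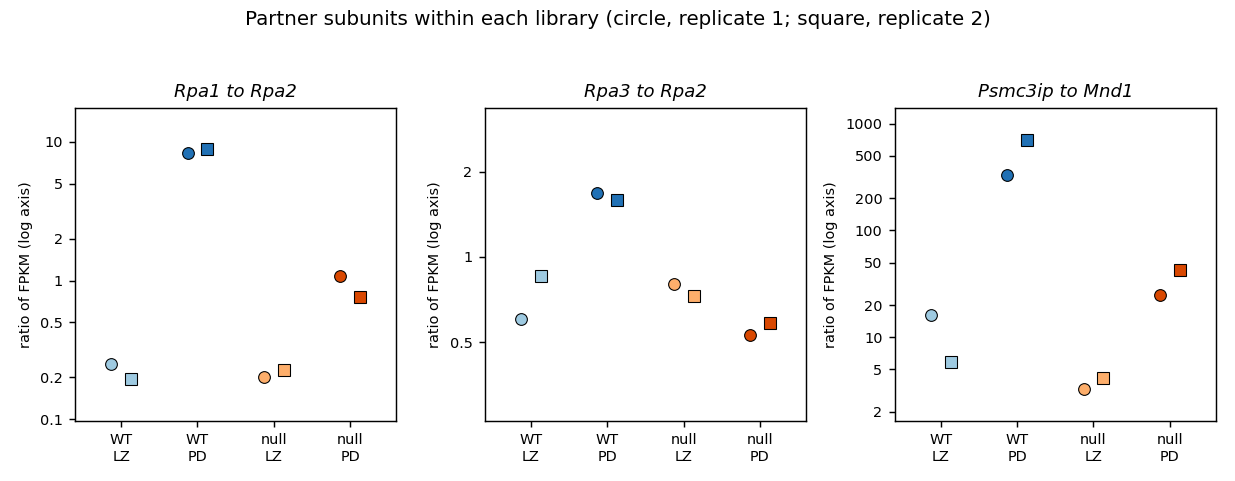
Ratio of FPKM (log axis) between partner subunits in each library for Rpa1 to Rpa2, Rpa3 to Rpa2 and Psmc3ip to Mnd1, with circles for replicate 1 and squares for replicate 2. The Rpa1 to Rpa2 ratio is 8.26 and 8.81 in WT PD and at most 1.07 in the other 6 libraries.

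The neighbouring steps of the pathway were examined with 6 lists of 52 genes, all of which were tested. From LZ to PD in WT, 31 of the 52 were called lower and 4 higher, against 36.2% and 21.6% of all tested genes, with a median log2 change of -1.13. In Cnot4-null 26 were called lower and 1 higher, against 18.2% and 27.8%, with a median of -0.90. The counts of single lists below stand against these same shares. Between genotypes at LZ 0 of 52 were called. At PD 19 were called higher and 4 lower in Cnot4-null, against 41.6% and 11.5% of all tested genes, with a median of 0.25, below the 0.66 of all tested genes. The interaction was called higher for 9 and lower for 2, against 26.0% and 3.97%.

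Of the 9 other single-strand binding and RPA-associated proteins, 6 were called lower and 1 higher at PD in WT, against 36.2% and 21.6% of all tested genes. Between genotypes at PD, 5 were called higher in Cnot4-null, against 41.6%, and the list median was 0.74 against 0.66 for all tested genes. Rpain, whose product imports RPA into the nucleus, was at 80.4 and 90.3 FPKM (WT LZ), 4.49 and 4.53 (WT PD), and 40.4 and 36.9 (Cnot4-null PD) (log2 fold change at PD between genotypes 2.85, SE 0.186, adjusted p = 0.000137). Radx, a single-strand binding protein at stalled forks, had the lowest change of this list in WT (-4.11, adjusted p = 6.74e-05) and Stn1, a subunit of the RPA-like CST complex, the highest (2.09, adjusted p = 0.00827), with Cnot4-null PD libraries of Stn1 at 10.6 and 2.71 FPKM.

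Among the 4 meiotic single-strand binding genes and BRCA2 partners, 1 was called higher and 1 lower at PD in WT, against 21.6% and 36.2% of all tested genes. Meiob, whose product resembles the large RPA subunit, fell in WT (-1.50, adjusted p = 0.0106) and was not called between genotypes at PD (0.25, adjusted p = 0.584), with its sign turned under both scalings. Hsf2bp, which binds BRCA2, rose in WT by 1.16 (adjusted p = 0.0265) and was lower in Cnot4-null at PD (-1.09, adjusted p = 0.0378). Its Cnot4-null PD libraries were uneven, at 33.6 and 15.5 FPKM, against 52.0 and 47.9 in WT PD. Of the 7 recombinase paralogs and Shu complex genes, 2 were called lower and 1 higher in WT, against 36.2% and 21.6% of all tested genes. In Cnot4-null 0 were called, against 18.2% lower and 27.8% higher. Between genotypes at PD 1 was higher in Cnot4-null, against 41.6%, and this was Swsap1 (1.85, SE 0.305, adjusted p = 0.00272). Zswim7, its partner in the Shu complex, rose in WT by 0.97 (adjusted p = 0.0345), and Xrcc2 had the lowest change of the list at PD between genotypes (-0.79, adjusted p = 0.052).

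Among the 13 strand exchange accessory factors in WT, 10 were called lower at PD and 1 higher, against 36.2% and 21.6% of all tested genes. In Cnot4-null 6 were called lower and 0 higher, against 18.2% and 27.8%. Between genotypes at PD 5 were higher and 1 lower, against 41.6% and 11.5% of all tested genes. Mcm8, a helicase subunit of meiotic recombination, was at 34.2 and 30.7 FPKM (WT LZ), 1.80 and 1.26 (WT PD), and 11.9 in both Cnot4-null PD libraries (between genotypes at PD 2.36, SE 0.231, adjusted p = 0.000355). Fignl1, an antirecombinase, rose in WT by 0.74 (adjusted p = 0.0186) and was lower in Cnot4-null at PD (-1.02, adjusted p = 0.00683), and Rpa1 had the same calls in both comparisons.

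For the 7 end resection genes 4 were called lower in WT and all 7 in Cnot4-null, against 36.2% and 18.2% of all tested genes, with medians of -1.14 and -1.05. Exo1, a resection nuclease, fell in WT (-2.08, adjusted p = 0.000311), and Nbn had the highest value (-0.43, adjusted p = 0.128). At PD Rad50 (0.89, adjusted p = 0.0201) and Exo1 (0.86, adjusted p = 0.0235) were called higher in Cnot4-null, although Exo1 turned to -0.615 after quantile normalization and was not called under either scaling, and Blm had the lowest value (-0.57, adjusted p = 0.117). Of the 12 replication partners of RPA, 8 were called lower in each genotype, against 36.2% and 18.2% of all tested genes. At PD 6 were called higher and 2 lower in Cnot4-null, against 41.6% and 11.5%, with a median of 0.62 against 0.66. Fen1, the flap endonuclease of lagging strand synthesis, was at 0.382 and 0.700 FPKM (WT PD) and 18.7 and 19.5 (Cnot4-null PD) (3.71, SE 0.255, adjusted p = 0.000156), whereas Pcna, the sliding clamp, was lower there (-1.16, adjusted p = 0.0102). Rfc2, a clamp loader subunit, had the highest value of that list in WT (0.60, adjusted p = 0.11).

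The genes with the pattern most like Dmc1 across the 8 libraries, among 9348 genes with a mean FPKM of at least 5, were Lrpprc, Acer3, Lrr1, Slc17a5 and Tex16, with Pearson r from 0.9973 to 0.9992. Acer3, for example, was at 48.8 and 44.7 FPKM (WT LZ), 0.964 and 0.670 (WT PD), 75.2 and 46.9 (Cnot4-null LZ), and 6.56 and 7.70 (Cnot4-null PD). For Rpa2 they were Mrpl49, Magoh, Ddx10, Prps1 and Rab10, with r from 0.9975 to 0.9987. Magoh was at 688.1 and 587.1 (WT LZ), 81.1 and 75.8 (WT PD), 703.7 and 648.0 (Cnot4-null LZ), and 257.3 and 190.9 (Cnot4-null PD). These correlations describe 8 libraries in 4 groups that share their depth and cell content, so they mostly reflect the group means.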

How the data were processed

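FPKM values were analysed as deposited. The authors mapped trimmed reads to mm9 with TopHat2 2.1.1 and computed FPKM with Cufflinks 2.2.1 from UCSC gene models. The methods describe Smart-Seq2 on sorted cells and the labels Trizol and TruSeq, and which was used is not resolved here. Genes above 1 FPKM in at least 1 library were tested on log2(FPKM + 1) with limma 3.58.1 in R 4.3.3 (4 group means, all 8 libraries, eBayes with trend, 4 residual degrees of freedom, two-sided), with Benjamini-Hochberg adjustment over all genes in each of 5 contrasts. The procedure was tested on simulated data without a general shift between groups, so that test does not cover the dependence on scaling. Tables and figures were made in Python 3.11.15 with numpy 2.4.6, pandas 2.3.3 and matplotlib 3.10.9.

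The members and lists were chosen with earlier results of these data known. Named genes are the members, Cnot4, the largest positive and negative changes of each list in WT from LZ to PD and between genotypes at PD, the 5 nearest patterns to Dmc1 and Rpa2, and the most abundant marker of each list in Cnot4-null PD. Some of the markers at 0 are also named. Older symbols were matched through RefSeq synonyms (Meiob as 4930528F23Rik, Swsap1 as 2310047B19Rik, Stn1 as Obfc1, Radx as D330045A20Rik and Adgre1 as Emr1). The Sertoli cell marker Rhox5 has no value in the files. Alternatives were no filter, a mean FPKM of at least 5, a pseudocount of 0.1, quantile normalization, rescaling to the same median (7870 genes above 1 FPKM in every library), eBayes without trend, only the libraries compared, a block on the replicate number, and each library left out. Depth estimates were added after the data had been seen, cover no test, and take the FPKM of 1 fragment from the GENCODE vM1 length of genes with 1 coding transcript.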

Additional observations from a re-analysis of the deposited data

Results flagged for a closer look

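The effect of genotype differed between the stages for 2 members by the interaction test, against 26.0% of all tested genes called higher and 3.97% lower. For Dmc1 the difference was 2.098 on the log2 scale, from 0.32 at LZ to 2.42 at PD, and for Rpa2 it was 1.964, from -0.08 at LZ to 1.88 at PD. The Dmc1 call was lost after quantile normalization (0.90, adjusted p = 0.124) and without WT PD replicate 2 (1.88, adjusted p = 0.0565), over a range of 0.00648 to 0.124. Markers of Leydig, myoid, spermatid and spermatogonial cells were also higher in Cnot4-null PD, and their part in both values was not tested.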

How the results depend on the processing

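Each group held 2 libraries, the values were FPKM without counts, and the lone library left in a group after a leave-out was assumed to vary like the other groups. Of the members' values not called in the analysis as run, other alternatives gave 162 of 177 the same label and leave-outs 161 of 184. Of the members' values called, 10 of 174 and 13 of 176 lost the call. Cnot4 and the genes of the pathway lists are outside this tally. The leave-outs were planned, Cnot4-null PD replicate 2 was singled out among them after seeing the data, and the depth estimate was added then. The cause of any change below was not tested.

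Quantile normalization turned the direction of Rad51ap1 from LZ to PD in WT (-0.0591), Rpa3 between genotypes at LZ (-0.00589) and, between genotypes at PD, Rad51ap2 (-0.361), Brca2 (-0.297), Meiob (-0.47) and Exo1 (-0.615). In the interaction it gave Rad51ap2 -0.777, Mnd1 -0.206 and Brca2 -0.725, with 1 member called higher and 1 lower. Of all 15899 tested genes, 1548 were called higher there and 1966 lower, against 4139 and 631 in the analysis as run.

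Rescaling to the same median gave Rpa3 -0.0281 and Meiob -0.143 between genotypes at PD, and Pcna 0.373 from LZ to PD in WT. In the interaction it gave Rad51ap2 -0.0907, Brca2 -0.363 and Rpa3 -0.0467, with 4 members called, 2 of them lower. Of all 15899 tested genes, 3279 were called higher there and 1903 lower, against 4139 and 631 in the analysis as run.

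With only the libraries compared, 0 members were called higher from LZ to PD in Cnot4-null, and between genotypes at PD 2 were called and 0 were lower. Of all 15899 tested genes, 3955 were called for the stage in Cnot4-null, 6088 between genotypes at PD and 4 at LZ.

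Leaving out each library in turn changed the members called higher from LZ to PD in Cnot4-null, and also all genes called, given below. Rpa1 there was -0.165 to 0.771. Between genotypes at LZ the ranges were -0.0251 to 0.664 for Dmc1, -0.0447 to 0.171 for Rad51ap1, -0.0624 to 0.854 for Rad51ap2, -0.393 to 0.0642 for Psmc3ip, -0.338 to 0.0785 for Rpa1, -0.187 to 0.0212 for Rpa2, -0.21 to 0.219 for Rpa3 and -0.0351 to 0.279 for Cnot4. Between genotypes at PD 2 to 6 members were called and 0 to 3 lower. In the interaction 1 to 5 were called, 1 to 2 higher and 0 to 3 lower, Rad51ap2 was -0.45 to 0.466 and Brca2 -0.11 to 0.196. Pcna in WT was -0.0342 to 0.00757.

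All genes called without 1 library were 4644 and 4828 for the stage in Cnot4-null (without Cnot4-null LZ replicate 1 and 2), 25 at LZ without WT LZ replicate 1 and 9 without either WT PD library, 4341 and 4057 at PD without WT PD replicate 1 and 2, and 1656 to 7929 for the interaction. No filter gave 31 at LZ, and a mean FPKM of at least 5 gave 5219 at PD.

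A block on the replicate number gave 8, 7, 0, 5 and 2 members called in the 5 contrasts, as without it, and 9085, 7128, 16, 8298 and 4355 genes. The labels share only this number, and correlations of same-numbered deviations were -0.06512 to 0.1943.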
